A study of Mus musculus with 8 samples.

Results

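The 9-1-1 checkpoint clamp and the kinases that carry its signal were described in mouse testis across 4 combinations of Ku86 and Terc genotype. The genes asked for were Hus1, Rad1 and Rad9a (the clamp), Rad17 (its loader), Atm and Atr (the upstream kinases) and Chek1 and Chek2 (the downstream kinases). Members were all probe sets annotated to 1 of these 8 symbols. This gave 9 of the 12488 probe sets on the array, for 7 of the 8 genes. Hus1 had 3 probe sets and the other 6 genes 1 each, while Atr was not analysed here. Hus1 was included because its signal had been seen to be high in the Terc knockout only. Its levels are therefore given as a description with no test. The other genes were chosen by function, though with earlier results of these data known.

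Total RNA was measured on 8 Affymetrix MG_U74Av2 arrays, 2 per genotype. The double knockout lacks both Ku86 and Terc. The single knockouts lack Ku86, with Terc intact, or Terc, with Ku86 intact, and the wild type carries both. Terc is the RNA template of telomerase, and the labels give the Terc-null mice, the double knockout included, as the third generation without it. Ku86, the product of Xrcc5, binds broken DNA ends. The scanner records name 3 animals pooled for double knockout replicate 1, call that array and the other 7 germ cells, and mark wild type replicate 1 as a repeated hybridisation. The labels call the source testis. Age and strain are not given in the sources used here, and nothing states how the 2 samples of a genotype differ, so the spread between them may be partly technical.

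When replication stalls or DNA is resected, the Rad17 complex loads a ring of Rad9, Rad1 and Hus1 onto the DNA. The ring brings in the activator of the ATR kinase, and ATR then phosphorylates Chk1, the Chek1 product. Double-strand breaks activate ATM, which phosphorylates Chk2, the Chek2 product, and both downstream kinases restrain the cell cycle. In the testis the same proteins also act on the programmed breaks of meiosis and on unpaired chromosomes in spermatocytes.

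Median signal per array lay between 49.6 and 73, lowest on wild type replicate 1, in arbitrary units. That array also had the largest share of probe sets at or under the floor, 26.0% against 15.6% to 22.6% on the other 7. The floor is a signal of 11.8, the 20th percentile of all values, to which lower values were set. Arrays were scanned on 3 days. The first replicates of the double knockout and the Ku86 knockout were scanned on day 1, the first wild type replicate on day 3, and the other 5 arrays on day 2. Each day used its own chip lot, and effects of the 2 cannot be told apart. Some germ cell markers were bright, with Prm1 (protamine 1) at 13783 to 18507 and Ldhc (germ cell lactate dehydrogenase) at 9521 to 13681 over all arrays. Others were not. The spermatocyte marker Sycp3 read 0.7 to 9.3, under the floor. The spermatid marker Tnp1 read 5956 to 9781 on its brighter probe set and 8.8 to 57.7 on its dimmer. The epididymal genes Lcn5 and Adam7 stayed at or under 41.2 and 37.

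Xrcc5, the targeted gene of the Ku86 knockout, went against its label. It read 259 and 423 in the double knockout, 420 and 459 in the Ku86 knockout, 71.2 and 11.1 in the Terc knockout, and 46.3 and 75.6 in wild type. All 4 arrays labelled as lacking Ku86 were higher than the 4 labelled as carrying it. The array's other Xrcc5 probe set read 3.4 or less throughout. Probe positions are not known here, and a probe that reads sequence left in the allele cannot check a deletion, so the Ku86 genotypes below are those of the labels. Terc had no probe set, and its genotype could not be checked.

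Hus1, the clamp subunit, gave its highest signals in the Terc knockout on its brightest probe set (92504_at). The signals were 73.6 and 27.9 in the double knockout, 27.7 and 37.9 in the Ku86 knockout, 214 and 292 in the Terc knockout, and 14.3 and 13.7 in wild type. Both Terc knockout arrays stood above the other 6, and the lower of them was 2.91 times the highest signal elsewhere. Over all tested probe sets, 3.85% had both Terc knockout arrays above the other 6. Since the gene was picked for this pattern, nothing is read from that share.

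The mean signal of this probe set was 253 ± 54.5 in the Terc knockout, 50.8 ± 32.3 in the double knockout, 32.8 ± 7.21 in the Ku86 knockout and 14.0 ± 0.424 in wild type (SD, n = 2 each). The double knockout and the Ku86 knockout overlapped, because the second double knockout array (27.9) lay between both Ku86 knockout arrays. Wild type lay below every knockout array, as in 7.62% of all tested probe sets, and nothing is read from that share either. The double knockout pair differed by 2.64 times, and its higher value came from the pool of 3 animals scanned on day 1. On the log2 scale the Terc knockout differed from wild type by 4.16 ± 0.552 (SE), which is 17.9-fold. The double knockout differed by 1.69 and the Ku86 knockout by 1.21. Within scan day 2 these differences were 4.19, 1.03 and 1.47.

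Wild type stood only a little above the floor, so the size of the fold depended on how low values were treated. With the floor at the 40th percentile, a signal of 38.1, the Terc knockout difference was 2.71 and that of the Ku86 knockout was 0. Adding 11.8 to each value in place of the floor gave 3.34.

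The other 2 Hus1 probe sets did not show this pattern. Probe set 92505_g_at is annotated to the same sequence record as the brightest one. It read 20.1 and 10.7 in the double knockout, 9.8 and 25.9 in the Ku86 knockout, 23.3 and 35.5 in the Terc knockout, and 7.8 and 30.5 in wild type. Its genotypes overlapped, and 3 of its 8 values were at or under the floor. Probe set 92503_at, annotated to another Hus1 record, read 37 and 31.5 in the double knockout, 44.4 and 50.6 in the Ku86 knockout, 34.4 and 26 in the Terc knockout, and 18.8 and 46.5 in wild type. Here the Terc knockout mean (30.2 ± 5.94) lay below that of the Ku86 knockout (47.5 ± 4.38) and within the range of wild type (32.7 ± 19.6; SD, n = 2 each).

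In the Terc knockout against wild type the fitted log2 differences of the 3 Hus1 probe sets were thus 4.16, 0.60 and 0.016, the last on 92503_at. Neither 92505_g_at nor 92503_at reached the signal required for testing, and both differences come from a fit with no such filter. Probe set 92504_at passed that filter through its Terc knockout signals, the ones Hus1 was picked for. Its median over the 8 arrays was 32.9, beside 35.7 on 92503_at and 21.7 on 92505_g_at. The correlation with 92504_at over the 8 arrays was 0.516 for 92505_g_at and -0.114 for 92503_at. These arrays share scaling and scan days, and no p is given.

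**Figure D1:**
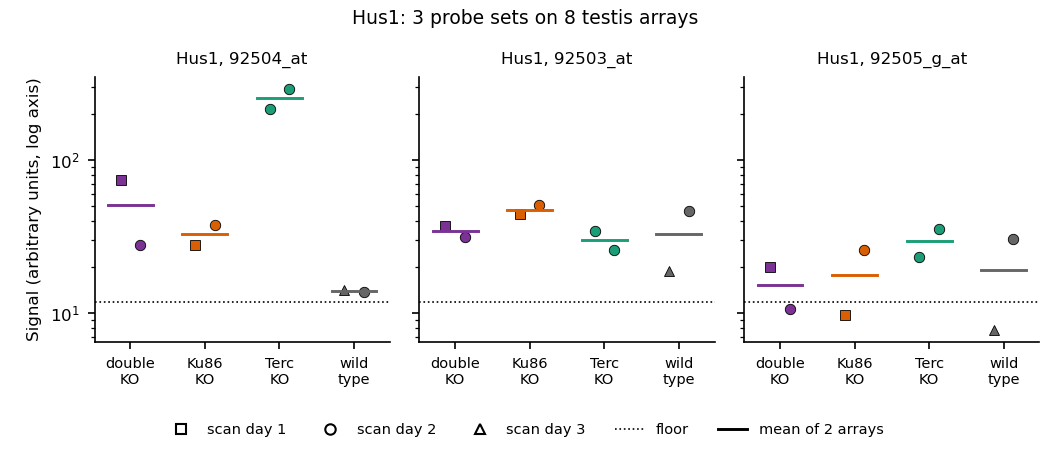
Signal of the 3 Hus1 probe sets on each array (vertical log axis, arbitrary units), by genotype, with symbols for the scan day, a line for the mean of 2 arrays and a dotted line at the floor of 11.8. On 92504_at the Terc knockout arrays (214 and 292) stand above all others, whereas on 92503_at and 92505_g_at the genotypes overlap.

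As deposited, summed markers of a pair of somatic cell types lay above wild type on every knockout array, although none of their probe sets was called. Single probe sets with every knockout array above wild type made up 7.62% of all those tested. The sums were not recomputed under other scalings, and wild type replicate 1 had the lowest median signal, 49.65. Sertoli cells are the nurse cells of the seminiferous tubule. Their list had 11 of its 12 genes on the array in 16 probe sets, summed to 4391 to 5295 in the double knockout, 2584 to 3901 in the Ku86 knockout, 3114 to 3434 in the Terc knockout and 2249.7 to 2342 in wild type. All 7 peritubular and matrix genes (10 probe sets) summed to 1847 to 2040 in the double knockout, 897 to 1526.5 in the Ku86 knockout, 1214 to 1448 in the Terc knockout and 693 to 832 in wild type. At or under the floor lay 1 or 2 Sertoli probe sets and 0 to 3 peritubular ones per array, among them Inhbb, Myh11 and Col3a1. Of 13 tested Sertoli probe sets 12 were higher than wild type in each knockout, and of 6 peritubular ones 6 were, with 0 called by limma. Of all tested probe sets 58.7% in the double knockout, 59.7% in the Ku86 knockout and 61.1% in the Terc knockout were higher. At an unadjusted p under 0.05 there were 8 Sertoli and 5 peritubular probe sets in the double knockout, 1 and 2 in the Ku86 knockout, and 3 and 3 in the Terc knockout, where all probe sets gave shares of 8.6%, 5.9% and 7.06%. Leydig cell markers, from the steroid-making cells, summed to 1113.5 to 1807 in the double knockout, 853 to 1209 in the Ku86 knockout, 1037 to 1612 in the Terc knockout and 811 to 1086 in wild type, and both single knockouts overlapped with wild type. Macrophage markers (5 genes, 9 probe sets, 1 to 4 at or under the floor) summed to 503 to 528 in the double knockout, 531 to 549 in the Ku86 knockout, 573 to 621 in the Terc knockout and 490 to 568 in wild type. They were highest on the Terc knockout arrays by a small margin, 573 against 568 on a wild type array. The double knockout had the highest Sertoli and peritubular sums. The part of these cells in the Hus1 signal was not tested. In RNA from mixed cells, more cells of a type and more RNA per cell cannot be told apart. The labels call the source testis and the scanner records germ cells, so which cells were taken is not settled.

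Rad1 (99005_at), the subunit that joins Hus1 to Rad9 in the ring, was dim. It read 57.3 and 33 in the double knockout, 39.4 and 17.3 in the Ku86 knockout, 27.4 and 9.5 in the Terc knockout, and 63.4 and 48.3 in wild type. Both single knockouts lay below wild type, and the double knockout overlapped with wild type. Over all tested probe sets 12.2% had both Terc knockout arrays, and 13.7% both Ku86 knockout arrays, below wild type. Its geometric mean over the arrays, with the floor applied, was 32.6. The filter required 38.1, so Rad1 was outside the test. Fitted with no filter, it differed from wild type by -1.62 ± 0.636 in the Terc knockout (limma adjusted p = 0.73), by -1.08 ± 0.636 in the Ku86 knockout (adjusted p = 0.877) and by -0.35 ± 0.636 in the double knockout (adjusted p = 1; SE for each). None of these passed.

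Rad9a (93522_at), the third clamp subunit, whose tail recruits the activator of ATR, was dim and at or under the floor on 4 of the 8 arrays. It read 5.7 and 17.5 in the double knockout, 37.3 and 9.4 in the Ku86 knockout, 8.2 and 27.3 in the Terc knockout, and 7.6 and 36.9 in wild type. In every genotype 1 of the 2 arrays was at or under the floor, so the genotypes overlapped and no order can be given. Of the clamp probe sets, Hus1 92503_at (geometric mean 34.6) and Rad1 (32.6) were the nearest below the filter of 38.1, and Hus1 92504_at (47.6) was the nearest above it.

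Rad17 (103840_at), which loads the clamp, was well above the floor and gave no called difference. The signals were 341 and 247 in the double knockout, 253 and 243 in the Ku86 knockout, 256 and 162.5 in the Terc knockout, and 257 and 302 in wild type. The low value of 162.5 came from Terc knockout replicate 2, and the high value of 341 from the pooled double knockout array. Both single knockouts lay below wild type with little or no gap, 256 against 257 at the closest, an arrangement with the shares given for Rad1. The Terc knockout differed from wild type by -0.45 ± 0.284 on the log2 scale (SE, limma adjusted p = 0.681), with a 95% interval of -1.07 to 0.17. Without Terc knockout replicate 2 that difference was -0.12, and without replicate 1 it was -0.78. The Ku86 knockout differed by -0.16 (95% interval -0.78 to 0.45), and the double knockout by 0.060 (-0.56 to 0.68), a sign that turned under both other scalings and with scan day as a block.

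Atm (101180_at), the kinase activated by double-strand breaks, was detected poorly. It read 38.3 and 17.7 in the double knockout, 13.1 and 40.5 in the Ku86 knockout, 34.7 and 10.9 in the Terc knockout, and 7.7 and 7.8 in wild type. Both wild type arrays and 1 Terc knockout array were at or under the floor, and the 2 arrays of each knockout differed more than 2-fold. Atm had a geometric mean of 19.5 and was outside the test. With no filter its differences from wild type were 0.78 in the Terc knockout, 0.96 in the Ku86 knockout and 1.14 in the double knockout. Each had an SE of 0.803, and none passed (lowest limma adjusted p = 0.828). Differences against a group at the floor depend on the floor.

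Chek1 (103064_at), the kinase downstream of ATR, was higher on all 6 knockout arrays than on both wild type arrays as deposited. It read 87.7 and 105 in the double knockout, 103 and 100.4 in the Ku86 knockout, 104 and 97.6 in the Terc knockout, and 75.2 and 82.3 in wild type. Over all tested probe sets 7.62% showed all 6 knockout arrays above wild type. The spread between arrays of a genotype was small, with a pooled SD of 0.108 on the log2 scale. The fitted differences from wild type were 0.36 ± 0.313 in the Terc knockout, 0.37 ± 0.313 in the Ku86 knockout and 0.29 ± 0.313 in the double knockout (SE). The model's SE is larger than this spread would give, because it is moderated toward that of probe sets of like brightness. None of the 3 passed (limma adjusted p = 0.759, 0.827 and 0.872), and the 95% intervals reached from -0.40 to 1.05 over the 3.

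The separation of Chek1 depended on how the arrays were scaled. After quantile normalization 5 of 6 knockout arrays stood above both wild type arrays, and after each array was scaled to the same median 2 of 6 did. The fitted differences then ranged down to 0.025 in the Terc knockout, 0.14 in the Ku86 knockout and 0.019 in the double knockout under median centring. As deposited but without double knockout replicate 2, the double knockout differed by 0.16. The median of all probe sets lay 0.107, 0.095 and 0.075 above wild type in those comparisons as deposited, and at -0.224, -0.137 and -0.191 after median centring. Spermatogonia markers, which include Dazl and Ddx4 (7 of 7 genes, 9 probe sets), summed to 2812 to 3176 in the double knockout, 2571 to 3090.5 in the Ku86 knockout, 2423 to 2944 in the Terc knockout and 1698 to 2688 in wild type. Up to 4 of those probe sets were at or under the floor on an array, Stra8 and Gfra1 among them. Ddx4 alone read 865 to 2230. Spermatocyte markers summed to 14759 to 15648 in the double knockout and 14556.5 to 14808 in the Ku86 knockout. In the Terc knockout their sum was 14737 to 18262, and in wild type 16005 to 17285. Spermatid sums, in that order of genotypes, were 71639.5 to 77863, 77561 to 78650, 77833 to 84940 and 71839 to 82573. The part of germ cell stages in the Chek1 signal was not tested.

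Chek2 (92481_at), the kinase downstream of ATM, overlapped between all genotypes. It read 111 and 129.5 in the double knockout, 92.7 and 116 in the Ku86 knockout, 96.9 and 129.7 in the Terc knockout, and 115 and 75 in wild type. Of the 6 knockout arrays, 3 stood above both wild type arrays, and after either other scaling 0 did. The differences were 0.27 (95% interval -0.46 to 1.01) in the Terc knockout, 0.16 (-0.58 to 0.90) in the Ku86 knockout and 0.37 (-0.37 to 1.11) in the double knockout. Leaving out wild type replicate 2, the low array, brought them to -0.034, -0.15 and 0.062.

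**Figure D2:**
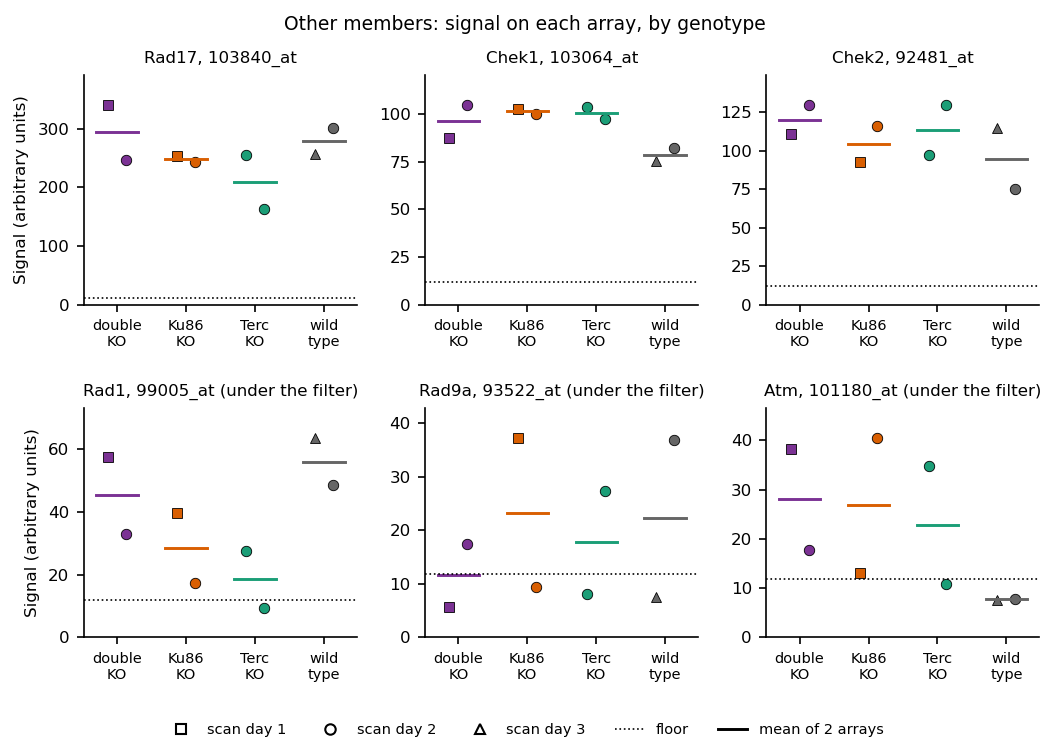
Signal of the other 6 members on each array (vertical linear axis from 0, arbitrary units), by genotype, with symbols for the scan day, a line for the mean of 2 arrays and a dotted line at the floor of 11.8. As deposited, Chek1 is the only one of these with every knockout array above both wild type arrays and all values over the floor. Over all tested probe sets 7.62% had every knockout array above wild type. For Chek1 the separation was lost after quantile normalization and after median centring.

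Hus1 aside, 3 member probe sets entered the test, those of Rad17, Chek1 and Chek2, and limma called 0 of the 3 in each of 6 comparisons. None of the 3 had an unadjusted p under 0.05 in any comparison either, the lowest being 0.12 for Rad17 in the interaction. Over all 7282 tested probe sets, the share called was 0.0275% for the Terc knockout, 0.0412% for the Ku86 knockout and 0.0275% for the double knockout, each against wild type. It was 0.0137% for Terc loss averaged over Ku86 genotype, and 0% for Ku86 loss averaged over Terc genotype and for the interaction. At an unadjusted p under 0.05 the shares were 7.06%, 5.9% and 8.6% in the Terc, Ku86 and double knockout against wild type. They were 5.29% for averaged Terc loss, 5.15% for averaged Ku86 loss and 5.04% for the interaction. Averaged over the other genotype, Terc loss gave -0.11 for Rad17, 0.14 for Chek1 and 0.24 for Chek2. Ku86 loss gave 0.17, 0.15 and 0.13 in the same order of genes. The 95% intervals of those 6 averages lay between -0.55 and 0.76. The interaction was 0.67 ± 0.401 for Rad17, -0.44 ± 0.443 for Chek1 and -0.063 ± 0.477 for Chek2 (SE).

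**Figure D3:**
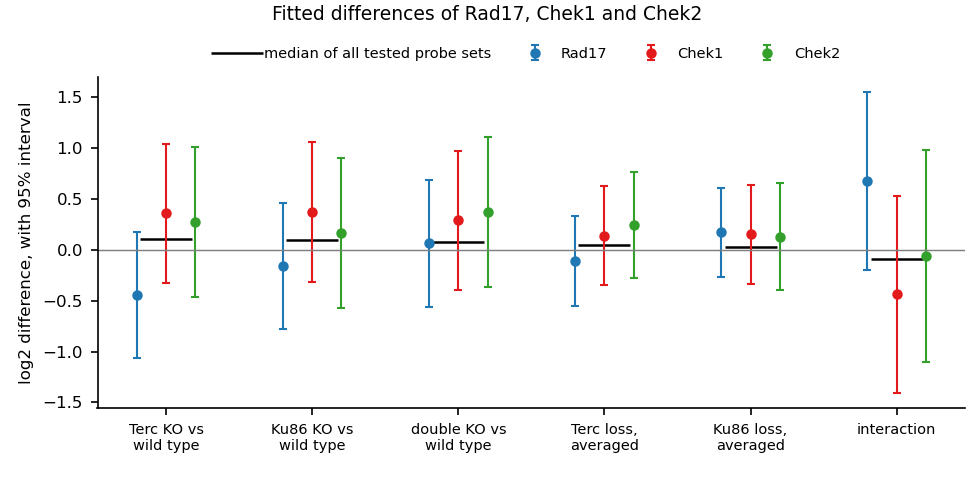
Fitted log2 differences of Rad17, Chek1 and Chek2 (points) with 95% intervals (bars) in 6 comparisons, and the median of all tested probe sets (black dashes). Every interval includes 0.

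Other genes of the checkpoint pathway were followed as a list, from which 28 of 39 genes had a probe set and 27 were tested, in 32 probe sets. Atrip, Rad9b, Hus1b, Clspn, Mdc1, Smg1, Trrap, Trp53, Cdc25b, Ccnb1 and Ppm1d were not analysed here. No probe set of the list was called by limma in any of the 6 comparisons. At an unadjusted p under 0.05 there was 1 in the Terc knockout, 1 in the Ku86 knockout and 0 in the double knockout, and in the averaged Terc loss, averaged Ku86 loss and interaction there were 0, 1 and 1. The list's median log2 difference was 0.0043 in the Terc knockout, 0.14 in the Ku86 knockout and -0.016 in the double knockout, beside 0.107, 0.095 and 0.075 over all probe sets.

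Genes on the ATR side lay close to all probe sets. They comprised replication protein A (Rpa1 to Rpa3), which coats single-stranded DNA, the loader subunits Rfc2 to Rfc5 that Rad17 partners, the ATR activator Topbp1, and the fork proteins Timeless and Tipin. Their 11 probe sets had medians of 0.13 in the Terc knockout, 0.12 in the Ku86 knockout and 0.034 in the double knockout. Rfc2 was the one with the smallest p in the double knockout, at 1706 and 1587 in the double knockout against 1971 and 1805 in wild type. Its difference was -0.20 ± 0.178 (SE, limma adjusted p = 0.829), and the 2 groups did not overlap, as in 13.2% of all tested probe sets.

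Sensors and mediators of double-strand breaks were the group with the lowest median in the Terc knockout, -0.33, with 5 of 6 probe sets lower than wild type and 0 called. Of all tested probe sets 38.9% were not higher there. They were Mre11a, Rad50 and Nbn of the complex that recruits ATM, H2afx (the histone variant phosphorylated around breaks), Trp53bp1 and Brca1. The medians were -0.10 in the Ku86 knockout and -0.016 in the double knockout, and in the interaction 5 of 6 lay above 0 with a median of 0.60, beside 42.5% above 0 and a median of -0.094 over all probe sets. Nbn read 88.1 and 42.5 in the Terc knockout, against 92.4 and 117 in wild type (-0.77 ± 0.411, SE, limma adjusted p = 0.672). Without Terc knockout replicate 2 the difference was -0.24, and without replicate 1 it was -1.29. Every probe set of this group read lower on Terc knockout replicate 2 than on replicate 1. Mre11a read 137 against 210, Trp53bp1 194 against 252 and Brca1 16.7 against 35.2, with smaller gaps for Rad50 and H2afx. The share of all probe sets lower on replicate 2 was not counted. The group's median was not recomputed without that array, and how far it rests on it was not tested.

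H2afx read 924 and 1113 in the double knockout, 839 and 948 in the Ku86 knockout, 1091 and 1019 in the Terc knockout, and 1680 and 1056 in wild type. One wild type array, replicate 1, stood far above the rest. The Ku86 knockout differed by -0.58 ± 0.233 (SE, limma adjusted p = 0.802) and by -0.24 without that array. The double knockout differed by -0.39 ± 0.233, and by 0.076 within scan day 2. Trp53bp1 read 167 and 164 in the Ku86 knockout, against 212 and 282 in wild type (-0.56 ± 0.262, SE, limma adjusted p = 0.802). Without wild type replicate 2 it differed by -0.36. Brca1, a repair mediator, read 76.8 and 57.4 in the double knockout, against 38.3 and 34.9 in wild type (0.86 ± 0.568, SE, limma adjusted p = 0.74).

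Related kinases comprised Prkdc, the catalytic partner of Ku in end joining, and Mtor, the growth kinase of the same family. Prkdc read 57 and 35.2 in the double knockout, 42.7 and 52.1 in the Ku86 knockout, 71.7 and 89.7 in the Terc knockout, and 33 and 43 in wild type. Both Terc knockout arrays were the highest, as in 3.85% of all tested probe sets, and the gene was named for its small p in this comparison. The Terc knockout differed from wild type by 1.09 ± 0.475 (SE, limma adjusted p = 0.672), and by 0.90 without wild type replicate 1. Mtor differed by 0.46 ± 0.227 in the Terc knockout on one probe set (SE, limma adjusted p = 0.672) and by -0.050 on the other.

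Effectors of arrest, 12 probe sets for 9 genes, had medians of -0.044 in the Terc knockout, 0.20 in the Ku86 knockout and -0.063 in the double knockout. Cdk1, the mitotic kinase that the checkpoint holds inactive, read 719 and 757 in the Ku86 knockout, against 539 and 641 in wild type (0.33 ± 0.214, SE, limma adjusted p = 0.802). Without wild type replicate 1 it differed by 0.20. Cdkn1a, the p53-induced cyclin-dependent kinase inhibitor, read 167 and 198 in the Terc knockout on its tested probe set, against 194 and 150 in wild type, and the groups overlapped.

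**Figure D4:**
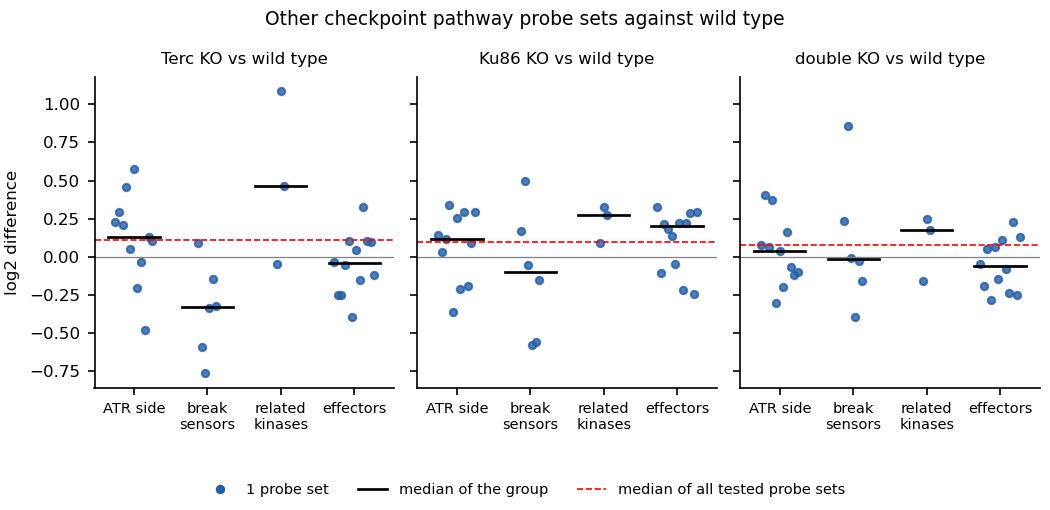
Log2 differences of the 32 tested probe sets of other pathway genes (points) in each knockout against wild type, in 4 functional groups, with each group's median (black) and the median of all tested probe sets (red dashes). The break sensors have the lowest group median in the Terc knockout, -0.33, and no point was called. Each break sensor probe set read lower on Terc knockout replicate 2 than on replicate 1, and the share over all probe sets was not counted.

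The tested probe sets most like Hus1 92504_at over the 8 arrays were found by Pearson correlation among 6536 probe sets with 1 symbol. They were Mfap5 (a microfibril protein, r = 0.953), Prkdc (0.934), Smarcc1 (a chromatin remodelling subunit, 0.916), Trav19 (a T cell receptor segment, 0.913) and Nfkb2 (an NF-kappa B subunit, 0.910). Leaving out any 1 array, the lowest of these correlations were 0.929, 0.887, 0.879, 0.856 and 0.870, each without Terc knockout replicate 2. A second Mfap5 probe set correlated at 0.556. The arrays share scaling and scan days, the list was picked from many probe sets, and no p is given. Hus1 was picked for its Terc knockout signal and the list for likeness to it, so a shared peak there follows from the pick. Arrays were left out only after that pick, which cannot show that the likeness is stable. Mfap5 read 91.8 and 79.8 in the double knockout, 75.8 and 76.3 in the Ku86 knockout, 96.9 and 123 in the Terc knockout, and 68.6 and 60.8 in wild type. Its range was thus far narrower than that of Hus1. Of the other members, Chek1 had the highest correlation with this Hus1 probe set, 0.497, and Rad1 the lowest, -0.654.

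**Figure D5:**
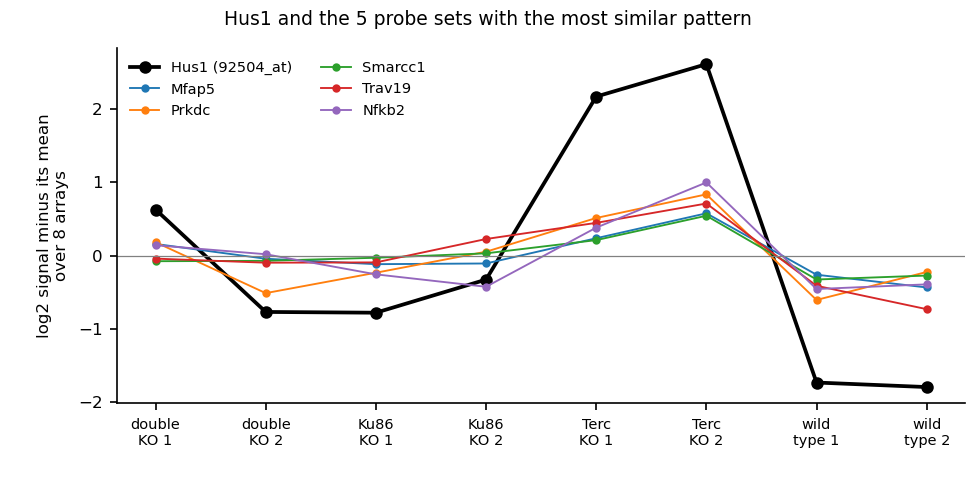
Log2 signal of Hus1 92504_at (black) and the 5 probe sets with the highest correlation to it, each minus its mean over 8 arrays (vertical axis), by array. All peak on the 2 Terc knockout arrays, which follows from picking them for likeness to Hus1, and Hus1 spans the widest range.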

How the data were processed

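Each of the 8 arrays gave 1 intensity per probe set on a linear scale, as deposited. The authors had scaled the arrays, since the mean without the top and bottom 2% was 200.13 to 200.16 on each. No header or label used here names the software. The members and lists were chosen with earlier results of these data known. No further scaling was applied to the deposited intensities, the trimmed means differing by under 5%. Values below 11.8, the 20th percentile, were raised to it before taking log2. The 66 control probe sets were left out. Probe sets were tested where the mean log2 value reached that of the 40th percentile (38.1), which left 7282 and removed 5140. Gene symbols came from the platform annotation table, which can be old, and 1 symbol was required (10855 probe sets). Older list symbols were matched through the gene table of assembly GRCm38.p6, from which no coordinates were taken.

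Limma 3.58.1 in R 4.3.3 was fitted to all 8 arrays with 1 mean per genotype (lmFit, eBayes with a trend), two-sided, with Benjamini-Hochberg adjustment over all tested probe sets and calls at an adjusted p under 0.05. Hus1 was left out of the counts. Every member was described. Of the pathway list, called genes or otherwise the 3 with the smallest p against wild type were named, Cdkn1a being added after its values were seen. The procedure was tested on simulated data. The number of arrays, 2 per genotype, limits the precision. Alternatives covered scaling, floor, filter, variance trend, arrays in the fit, replicate number or scan day as a block, each array left out, and an adjusted p under 0.10. Those for pathway genes and for the count of Chek1 arrays were chosen after seeing the data.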

Additional observations from a re-analysis of the deposited data

Results flagged for a closer look

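Hus1 on 92504_at moved in opposite directions with Ku86 loss on the 2 Terc backgrounds. With Terc absent, the double knockout (73.6 and 27.9) lay below the Terc knockout (214 and 292) on both arrays. With Terc present, the Ku86 knockout (27.7 and 37.9) lay above wild type (14.3 and 13.7) on both arrays. The interaction was -3.67 on the log2 scale, and -4.63 to -2.24 over the alternatives. With the floor at 38.1 the Ku86 knockout difference was 0, so the opposite direction was lost. The difference was not tested, since the gene was picked for this pattern. Xrcc5 went against the Ku86 labels on these arrays.

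Rad1 showed the opposite arrangement. With Terc absent, the double knockout (57.3 and 33) lay above the Terc knockout (27.4 and 9.5). With Terc present, the Ku86 knockout (39.4 and 17.3) lay below wild type (63.4 and 48.3), as in 13.7% of all tested probe sets. The share of probe sets with the double knockout above the Terc knockout was not counted. The interaction was 2.36 on the log2 scale. Rad1 was too dim for the main test, and in the fit with no filter the interaction did not pass (unadjusted p = 0.0478, limma adjusted p = 0.85). In the main test 5.04% of probe sets had an unadjusted p under 0.05 in the interaction.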

How the results depend on the processing

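Hus1 aside, 3 member probe sets entered the test as reported and 2 to 6 under the alternatives. None was called in the 21 alternatives run for each comparison with wild type or the 20 run for averaged losses and the interaction. With the replicate number as a block these counts were also 0, and the count over all probe sets was 0 in each comparison against wild type, beside 2, 3 and 2 without it for the Terc, Ku86 and double knockout. Whether the replicate numbers pair the samples is not settled. The replicate 2 arrays share scan day 2, while the replicate 1 arrays lie on all 3 days. Deviations of same-numbered arrays correlated at 0.013 to 0.254, over 0.1 in 3 of 6 pairs of genotypes, and the first principal component (27.8% of variance) was lower for replicate 1 than 2 in each genotype. Over all alternatives the count over all probe sets reached 17, 15 and 30 in those comparisons, 8 and 20 for averaged Terc and Ku86 loss, and 9 for the interaction. The scan day 2 arrays alone gave each of these highest counts, with 1 array for all genotypes but the Terc knockout, assumed to vary like that pair. For averaged Terc loss and the interaction, a floor at the 40th percentile gave the same counts. The lowest was 0 in each. Hus1 differences of the Terc knockout ranged from 2.71 to 4.38.

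Of 633 recomputed log2 differences of members and named genes, 25 changed sign, none of them a call. Quantile normalization gave -0.040 for Rad17 in the double knockout and 0.13 for Chek2 in the interaction. Median centring gave -0.206 for that Rad17 value, 0.233 for that Chek2 value, -0.058 and -0.073 for Chek2 in the Terc and Ku86 knockouts, and -0.046 for Chek1 under averaged Terc loss. Scan day as a block gave -0.186 for Rad17 and 0.053 for H2afx in the double knockout and -0.017 for Rad17 under averaged Ku86 loss, and scan day 2 alone gave -0.289, 0.076 and -0.017. Leaving out each array gave Rad17 -0.172 to 0.293 in the double knockout and -0.275 to 0.053 under averaged Terc loss. It gave Chek2 -0.034 to 0.580 in the Terc knockout, -0.147 to 0.467 in the Ku86 knockout, -0.026 to 0.282 under averaged Ku86 loss and -0.371 to 0.244 in the interaction. The cause of these changes was not tested.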
